A study of Mus musculus with 12 samples.

Results

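The miR-21 rows of the mouse skin miRNA table are mmu-miR-21a-5p and mmu-miR-21a-3p, the mature arms cut from the 2 sides of the Mir21a hairpin, together with mmu-miR-21b and mmu-miR-21c, which resemble miR-21a-5p and come from other hairpins; the species prefix is left out from here on. They were chosen by name and are 4 of the 1519 miRNA arms listed and 4 of the 590 arms with enough reads to test. The 12 small RNA libraries came from skin of C57BL/6 mice aged 6 to 8 weeks, with 3 libraries in each of 4 groups. The groups were untreated skin (control) and skin irradiated with 90, 180 or 360 mJ/cm2 of ultraviolet B (UVB) from a phototherapy lamp, and the study asked how miRNA levels change in acute UVB injury. The labels state neither the time from irradiation to sampling nor that each library is a different animal; the p-values therefore reflect only library-to-library spread, which may be technical.

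A miRNA is a short RNA cut from a hairpin precursor that guides Argonaute to messenger RNAs, mainly through the bases near its 5′ end called the seed, and lowers their output. One arm of a hairpin, the guide, is usually loaded and kept, while the other, the passenger, is mostly degraded. miR-21 is a widely expressed miRNA whose transcription is raised by AP-1 and STAT3; it is known in skin for its rise in wounds, psoriasis and tumours, and its known targets include Pdcd4, which restrains translation and growth.

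The 4 mature sequences are shown because the first 3 differ by few bases, which bears on both their targets and how well short reads can tell them apart, while miR-21a-3p is unlike them. They are RefSeq's, written 5′ to 3′ with bases 2 to 8, the seed, in capitals.
miR-21a-5p: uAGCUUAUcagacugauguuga
miR-21c: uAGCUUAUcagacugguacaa
miR-21b: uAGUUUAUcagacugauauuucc
miR-21a-3p: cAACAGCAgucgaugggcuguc

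Counted from 1 at the 5′ end, miR-21c had the same first 15 bases as miR-21a-5p and then differed by A16G, G18A, U19C, U20A and G21A, the base of miR-21a-5p first. It therefore has the seed of miR-21a-5p, and among the 1679 mature miRNAs of the RefSeq table searched these were the only 2 with that seed. miR-21b differed from miR-21a-5p by C4U, which lies in the seed, and by G18A, G21U and A22C, so that 18 of 22 aligned bases matched and the longest shared run was 13 bases. The seeds of miR-21b and miR-21a-3p occurred in no other mature miRNA of the table. Only 1282 of the 1519 arms listed matched the RefSeq table by name, so other arms with these seeds may lie outside the search. How the authors assigned reads that match more than 1 of these sequences is not given in the sources used here, so the levels of miR-21b and miR-21c are uncertain to the extent that they share reads with miR-21a-5p, which was not tested.

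On RefSeq's GRCm38.p6 assembly, miR-21a-5p lies at chr11:86584120-86584141 and miR-21a-3p at chr11:86584082-86584103, both on the minus strand. GENCODE places their hairpin in the last exon of Vmp1, exon 12, within its 3′ UTR and on the same strand. miR-21b lies at chr3:29636768-29636790 on the plus strand, where its hairpin is in an intron of Egfem1, and miR-21c at chr8:128278188-128278208 on the minus strand, where its hairpin is in no other annotated gene. The expression table itself carries no coordinates.

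The libraries held between 3164422 and 8063815 reads assigned to miRNA arms, so that 1 read was worth 0.124 to 0.316 CPM (reads per 1000000 reads assigned to miRNA arms), the unit used throughout. The deepest libraries were control replicates 1 and 2. CPM is a share of each library's miRNA reads, so a rise of one arm lowers the shares of the others, and in whole skin fewer cells of a type and less RNA per cell cannot be told apart. The liver miRNA miR-122-5p, a marker of a tissue not sampled, was low, between 0.827 and 13.3 CPM, but its mean was higher after UVB. It averaged 1.34 ± 0.45 CPM (SD, n = 3) in controls, below miR-21a-3p, miR-21b and miR-21c (6.52 to 6.65 CPM). After UVB it averaged 6.09 ± 4.66 CPM at 90 mJ/cm2, 8.88 ± 1.21 at 180 mJ/cm2 and 8.17 ± 5.35 at 360 mJ/cm2. Its log2 change of 2.09 at 180 mJ/cm2 (limma adjusted p = 0.012) exceeded those of these 3 arms. That of 1.77 ± 0.56 (SE) at 360 mJ/cm2 (adjusted p = 0.020) was close to the 1.72 of miR-21c. At 90 mJ/cm2 miR-122-5p did not pass by limma (1.27, adjusted p = 0.11) but passed with edgeR, DESeq2 or without replicate 1. The call at 360 mJ/cm2 was lost without control replicate 2 (1.60) or the 360 mJ/cm2 replicate 1 (1.63) or 3 (1.35).

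All 4 miR-21 rows were higher after UVB than in untreated skin at 180 and 360 mJ/cm2, and all but miR-21a-3p at 90 mJ/cm2 as well. miR-21a-5p rose most, from 2.26% to 18.3% of all miRNA reads, and at the highest dose it was the most abundant arm of the skin in 2 of 3 libraries. The other 3 members were present at a few CPM and their log2 changes were smaller. In the limma test with Benjamini-Hochberg adjustment over all 590 arms, 3 of the 4 members were called higher at 90 mJ/cm2, where 13.2% of all arms were called higher. At 180 and 360 mJ/cm2 all 4 were called, against 16.6% and 20.2% of all arms. Without control replicate 1, the number of arms called in either direction fell from 151 to 50 at 90 mJ/cm2 and from 181 to 90 at 180 mJ/cm2; it fell to 96 and 84 at 90 mJ/cm2 without control replicate 2 and the 90 mJ/cm2 replicate 3, and to 106 at 180 mJ/cm2 without its replicate 3. Of the called arms, 51.7%, 54.1% and 50.6% were higher in order of dose, and 60.0%, 63.3% and 65.2% when miR-21a-5p and miR-1a-3p were kept out of the library totals. With TMM scaling 45.7%, 46.7% and 49.2% of the called arms were higher, and with DESeq2 47.5%, 44.4% and 46.0%, so that the majority lay on the lower side.

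miR-21a-5p, the guide arm, stood at 20055, 26876 and 20866 CPM in control replicates 1, 2 and 3. It stood at 72954, 104232 and 145390 CPM at 90 mJ/cm2, at 128928, 113909 and 167646 CPM at 180 mJ/cm2, and at 177643, 192652 and 178726 CPM at 360 mJ/cm2. Every irradiated library was above every control, every 360 mJ/cm2 library was above all others, and the 90 and 180 mJ/cm2 libraries overlapped. The group means were 22599 ± 3726 CPM (SD, n = 3) in controls, 107526 ± 36330 at 90 mJ/cm2, 136828 ± 27726 at 180 mJ/cm2 and 183007 ± 8370 at 360 mJ/cm2. These means are 4.76, 6.05 and 8.10 times the control mean.

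The log2 changes of miR-21a-5p from control were 2.21 ± 0.25 (SE, limma adjusted p = 8.2e-05) at 90 mJ/cm2, 2.59 ± 0.25 (adjusted p = 1.1e-05) at 180 mJ/cm2 and 3.03 ± 0.25 (adjusted p = 1.2e-06) at 360 mJ/cm2. The 3 comparisons share the same controls and are not independent of each other. In each of them miR-21a-5p had the smallest p-value of the 590 arms, and by size of rise it ranked 5, 2 and 5. With 78549 to 848419 reads per library, counting error was negligible beside the difference between libraries: the coefficient of variation was 33.8% at 90 mJ/cm2 and 4.57% at 360 mJ/cm2.

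**Figure D1:**
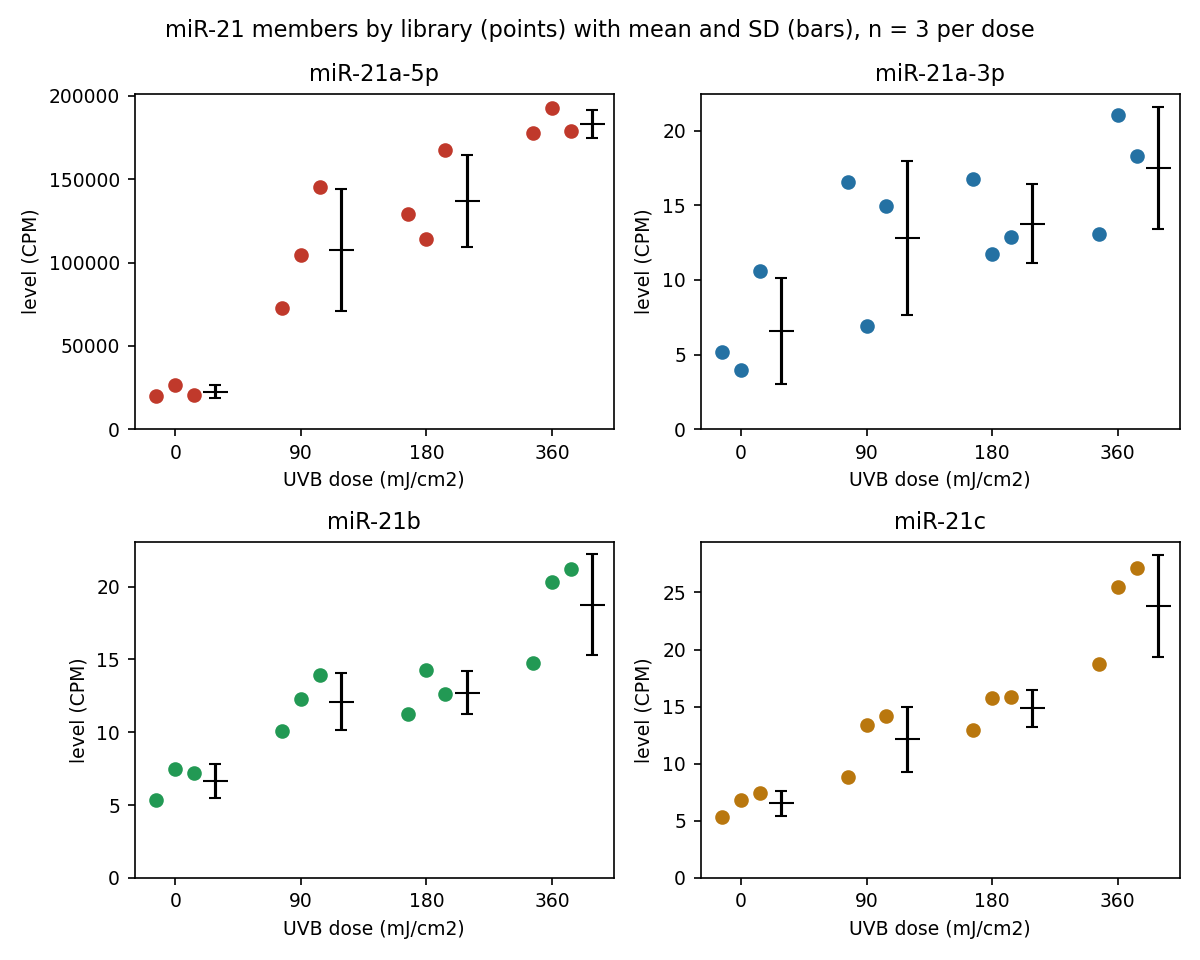
CPM of each miR-21 row in the 12 libraries, by UVB dose in mJ/cm2 at even spacing (points are libraries, bars mean ± SD, n = 3). miR-21a-5p climbs from 20055 to 26876 CPM in controls to 177643 to 192652 CPM at 360 mJ/cm2, and the other 3 rows reach 27.2 CPM at most.

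The rise changed the place of miR-21a-5p among the arms of the skin. In the control libraries it ranked 12, 10 and 11 of 1519, below miR-1a-3p of skeletal muscle, miR-148a-3p, miR-203-3p of keratinocytes and miR-143-3p of smooth muscle and fibroblasts, among others. At 90 mJ/cm2 it ranked 3, 2 and 2, and at 180 mJ/cm2 it ranked 3, 2 and 1. At 360 mJ/cm2 it was the first arm in replicates 1 and 2 and the second, after miR-1a-3p, in replicate 3. miR-1a-3p averaged 198981 ± 13809 CPM (SD, n = 3) in controls, 158128 ± 7475 at 90 mJ/cm2, 137517 ± 52932 at 180 mJ/cm2 and 168320 ± 22566 CPM at 360 mJ/cm2. In the 180 mJ/cm2 replicate 3, where miR-21a-5p ranked 1, miR-1a-3p stood at 77927 CPM, against 155540 and 179084 in replicates 1 and 2. The summed level of 4 skeletal muscle arms in that library was 82046 CPM, against 164886 and 187147 in replicates 1 and 2. Most of each sum was miR-1a-3p itself, so the sum is not a separate observation.

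miR-21a-3p, the passenger arm, was measured with 24 to 81 reads per library. It stood at 5.21, 3.97 and 10.6 CPM in controls, 16.6, 6.89 and 14.99 CPM at 90 mJ/cm2, 16.7, 11.7 and 12.8 CPM at 180 mJ/cm2, and 13.1, 21.1 and 18.3 CPM at 360 mJ/cm2. Replicate 2 at 90 mJ/cm2 lay below control replicate 3, so these groups overlapped. The libraries at 180 and 360 mJ/cm2 were all above the controls, and the 3 doses overlapped each other. The lowest value, 3.97 CPM in control replicate 2, rests on 24 reads and has an exact 95% binomial interval of 2.54 to 5.91 CPM, which covers counting error only.

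The means of miR-21a-3p were 6.60 ± 3.54 CPM (SD, n = 3) in controls, 12.8 ± 5.18 at 90 mJ/cm2, 13.8 ± 2.62 at 180 mJ/cm2 and 17.5 ± 4.07 at 360 mJ/cm2. Its log2 change from control did not pass the limma test at 90 mJ/cm2 (0.88 ± 0.36, adjusted p = 0.089). It passed at 180 mJ/cm2 (1.04 ± 0.36, adjusted p = 0.042) and at 360 mJ/cm2 (1.35 ± 0.36, adjusted p = 0.0076). The call at 180 mJ/cm2 was lost under other scalings and when any 1 of 5 libraries was left out (control replicates 1 and 2 and each 180 mJ/cm2 library), with log2 changes of 0.78 to 1.14 in those 5. At 90 mJ/cm2 the change passed when control replicate 3 or the 90 mJ/cm2 replicate 2 was left out.

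miR-21b, which has its own seed, stood at 5.33, 7.45 and 7.17 CPM in controls. It stood at 10.05, 12.3 and 14.0 CPM at 90 mJ/cm2, 11.3, 14.3 and 12.6 CPM at 180 mJ/cm2, and 14.8, 20.3 and 21.2 CPM at 360 mJ/cm2. Every irradiated library was above every control and every 360 mJ/cm2 library above all others, while 90 and 180 mJ/cm2 overlapped. The log2 changes from control were 0.78 ± 0.25 (limma adjusted p = 0.033), 0.85 ± 0.25 (adjusted p = 0.018) and 1.36 ± 0.25 (adjusted p = 0.00051) in order of dose.

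miR-21c, which has the seed of miR-21a-5p, stood at 5.33, 6.78 and 7.44 CPM in controls. It stood at 8.87, 13.4 and 14.2 CPM at 90 mJ/cm2, 13.0, 15.7 and 15.8 CPM at 180 mJ/cm2, and 18.7, 25.5 and 27.2 CPM at 360 mJ/cm2. Its groups were ordered as those of miR-21b were, with overlap between 90 and 180 mJ/cm2 only. The log2 changes from control were 0.79 ± 0.26 (limma adjusted p = 0.036), 1.08 ± 0.26 (adjusted p = 0.0078) and 1.72 ± 0.26 (adjusted p = 9.5e-05).

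The calls of both paralogs at 90 mJ/cm2 were lost without control replicate 1 or 2 or the 90 mJ/cm2 replicate 2 or 3. The call of miR-21b at 180 mJ/cm2 was lost without control replicate 1 or the 180 mJ/cm2 replicate 2 or 3. The calls of miR-21c at 180 mJ/cm2, and those of miR-21b, miR-21c and miR-21a-3p at 360 mJ/cm2, held in all 22 alternatives run. miR-21b rested on 27 to 78 reads per library and miR-21c on 28 to 98. Within a group, the spread of miR-21b and miR-21c was at most 3.21 times the variance that counting alone gives, against 1.98 to 9.31 times for miR-21a-3p and 1450 times or more for miR-21a-5p.

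Irradiated libraries that all lay above the controls were not rare among arms: 19.8%, 24.2% and 26.1% of the 590 arms had no overlap with the controls and were higher at 90, 180 and 360 mJ/cm2. Of the 4 members, 3 did so at 90 mJ/cm2 and all 4 at the higher doses.

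**Figure D2:**
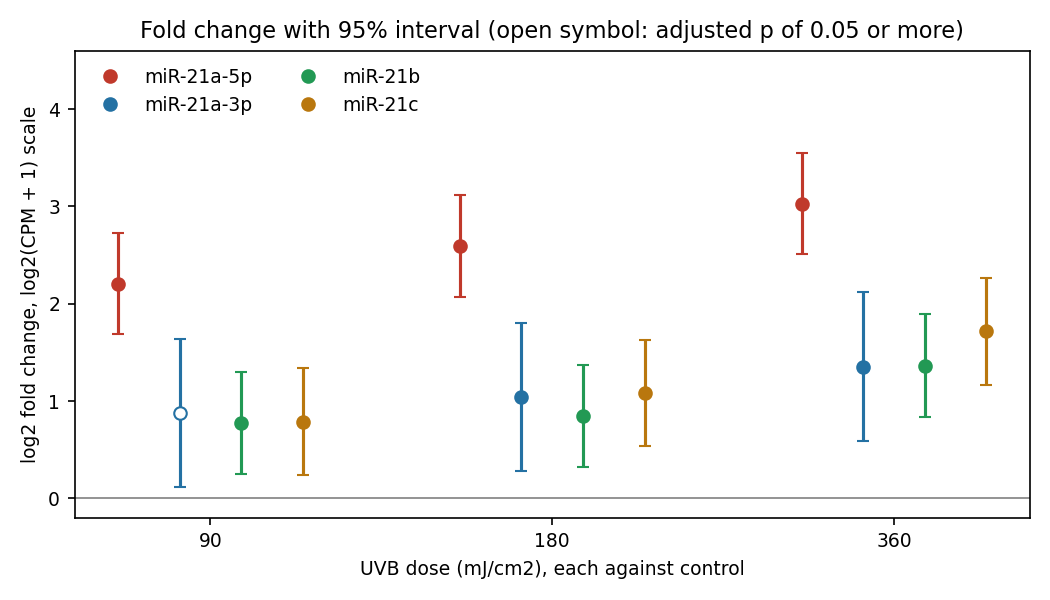
Log2 change of CPM + 1 from control for each miR-21 row at each dose, with 95% limma confidence intervals; filled symbols passed an adjusted p of 0.05 and open ones did not. miR-21a-5p runs from 2.21 to 3.03, the other 3 rows from 0.78 to 1.72, and the open symbol is miR-21a-3p at 90 mJ/cm2.

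Comparing dose with dose asks whether the levels went on rising. Between 90 and 180 mJ/cm2 none of the 4 members was called, and 0 of 590 arms (0%) were. At an unadjusted limma p under 0.05, 19 of the 590 arms and 0 of the 4 members passed, and edgeR and DESeq2 on the recovered reads also called 0. The log2 differences of 180 over 90 mJ/cm2 were 0.39 for miR-21a-5p (95% interval -0.14 to 0.91), 0.17 for miR-21a-3p (-0.60 to 0.93), 0.07 for miR-21b (-0.45 to 0.60) and 0.29 for miR-21c (-0.26 to 0.84).

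Between 90 and 360 mJ/cm2 miR-21a-5p rose by a log2 difference of 0.82 ± 0.25 (limma adjusted p = 0.043) and miR-21c by 0.93 ± 0.26 (adjusted p = 0.033), where 5.93% of all arms were called higher. miR-21b (0.59, adjusted p = 0.14) and miR-21a-3p (0.48, adjusted p = 0.41) did not pass. The call of miR-21a-5p was lost without any 1 of 7 libraries (replicates 1 and 2 at 90 and at 180 mJ/cm2, and each at 360 mJ/cm2), with differences of 0.57 to 0.84 in those 7. That of miR-21c was lost without the 90 mJ/cm2 replicate 1 or 2 or any 360 mJ/cm2 library. Between 180 and 360 mJ/cm2 no member was called by limma, with log2 differences of 0.44, 0.31, 0.52 and 0.64 for miR-21a-5p, miR-21a-3p, miR-21b and miR-21c, where 1.69% of all arms were called higher. The 360 mJ/cm2 libraries of miR-21a-5p, miR-21b and miR-21c were all above those at 180 and at 90 mJ/cm2, as were those of 13.4% and 17.1% of all arms; between 180 and 90 mJ/cm2 4.58% of arms, and no member, were higher without overlap.

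The limma F test over the 4 groups gave adjusted p = 5.6e-06 for miR-21a-5p, 0.032 for miR-21a-3p, 0.0043 for miR-21b and 0.00092 for miR-21c, where 40.2% of all arms passed. The log2 level rose with dose by 0.66 ± 0.12 per 90 mJ/cm2 for miR-21a-5p (limma adjusted p = 0.00089). The slope was 0.30 ± 0.09 for miR-21a-3p (adjusted p = 0.023), 0.31 ± 0.07 for miR-21b (adjusted p = 0.0027) and 0.40 ± 0.07 for miR-21c (adjusted p = 0.00037), where 15.6% of all arms had a rising slope that passed. For miR-21a-3p both the F test and the slope no longer passed without control replicate 1 or 2 or the 360 mJ/cm2 replicate 2 or 3, with adjusted p of 0.0665 to 0.155 and 0.0511 to 0.0707. A straight line is only a summary for all 4 members. For miR-21a-5p, 2.21 of its log2 rise of 3.03 at 360 mJ/cm2 was already present at 90 mJ/cm2. The like values were 0.88 of 1.35 for miR-21a-3p, 0.78 of 1.36 for miR-21b and 0.79 of 1.72 for miR-21c.

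Ratios within a library do not depend on the library total, and they show that the other members rose less than miR-21a-5p did. Each ratio has miR-21a-5p as its denominator, and the rise of that arm ranked 5, 2 and 5 among the tested arms in order of dose. Any arm ranked below it has a mean log2 ratio to it that fell. The ratios of miR-21b and miR-21c were not compared with those of other arms. Whether their falls are particular to them was therefore not tested. Per 10000 reads of miR-21a-5p, controls held 2.66, 2.77 and 3.44 reads of miR-21b, while the irradiated libraries held between 0.754 and 1.38, below every control. For miR-21c the controls held 2.66, 2.52 and 3.57 and the irradiated libraries 0.943 to 1.52, also without overlap.

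In an exact permutation test of the F statistic over all 369600 ways to deal the 12 libraries into 4 groups, the ratio differed between groups for miR-21b (p = 0.00792, adjusted over 3 ratios p = 0.0175) and for miR-21c (p = 0.0117, adjusted p = 0.0175). The log2 ratio at 360 mJ/cm2, computed on CPM + 1, was below control by a difference of -1.67 for miR-21b and -1.31 for miR-21c. It was lower than the control mean in 9 of 9 irradiated libraries for both. Unlike the ratios of reads, the permuted ratio of CPM + 1 depends on the library total through the 1 CPM added. With no pseudocount the differences were -1.536 for miR-21b and -1.165 for miR-21c (exact permutation test, adjusted p = 0.0139 for both). Together the other 3 members made up 0.0246% to 0.121% of the reads of the 4 rows.

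**Figure D3:**
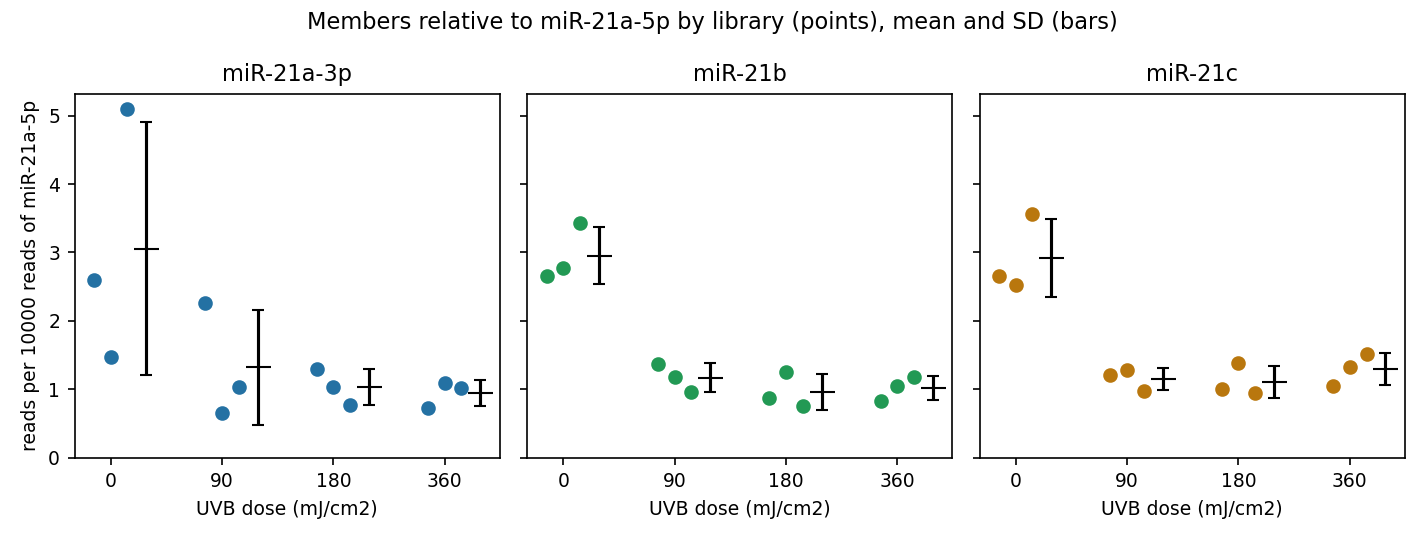
Reads of miR-21a-3p, miR-21b and miR-21c per 10000 reads of miR-21a-5p in each library, by UVB dose in mJ/cm2 at even spacing (points are libraries, bars mean ± SD, n = 3). Control means are 3.06, 2.96 and 2.92, and at 360 mJ/cm2 they are 0.952, 1.02 and 1.30.

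The passenger arm also fell behind its guide. Per 10000 reads of miR-21a-5p, controls held 2.60, 1.48 and 5.09 reads of miR-21a-3p. The 90 mJ/cm2 libraries held 2.27, 0.662 and 1.03, those at 180 mJ/cm2 1.30, 1.03 and 0.766, and those at 360 mJ/cm2 0.735, 1.09 and 1.03. The controls spread widely, control replicate 2 lay below the 90 mJ/cm2 replicate 1, and every library at 180 and 360 mJ/cm2 was below all controls. The exact permutation test gave p = 0.0395 (adjusted over 3 ratios p = 0.0395), with a log2 difference of -1.68 at 360 mJ/cm2. It no longer passed the exact permutation test with no pseudocount (p = 0.0651) or without any 1 of 9 libraries, all but control replicate 2 and the 90 mJ/cm2 replicates 1 and 2, with p of up to 0.151 without control replicate 3.

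The same ratio, computed on CPM + 1, was fitted with limma beside all 166 hairpins that had both arms tested. The log2 ratio of 3p to 5p of miR-21a changed by -1.33 ± 0.43 at 90 mJ/cm2 (adjusted p = 0.040), -1.55 ± 0.43 at 180 mJ/cm2 (adjusted p = 0.022) and -1.67 ± 0.43 at 360 mJ/cm2 (adjusted p = 0.0096), where 19.9%, 18.7% and 23.5% of hairpins were called in either direction. Over the 4 groups it differed with adjusted p = 0.024, where 28.9% of hairpins did. At 360 mJ/cm2 it was the seventh most negative change, in a set whose median was -0.14. In controls miR-21a was already among the most lopsided hairpins, with a mean log2 ratio of -11.62 against a median absolute ratio of 3.12, and only let-7g, let-7i and miR-99a were further from 0. Adding 0.1 CPM in place of 1 ended all 3 calls, with -1.54 (adjusted p = 0.053) at 360 mJ/cm2. At 360 mJ/cm2 the call held without each library in turn, with changes of -2.06 to -1.27. The call at 180 mJ/cm2 was lost without control replicate 1 or 3 or the 180 mJ/cm2 replicate 2 or 3 (adjusted p up to 0.0835). At 90 mJ/cm2 it was lost without any 1 of 8 libraries, all but control replicate 2, replicates 1 at 90 and 180 mJ/cm2 and replicate 2 at 360 mJ/cm2 (adjusted p up to 0.18). The difference over the 4 groups was lost without control replicate 1 or 3 or the 360 mJ/cm2 replicate 1 (adjusted p up to 0.1002).

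**Figure D4:**
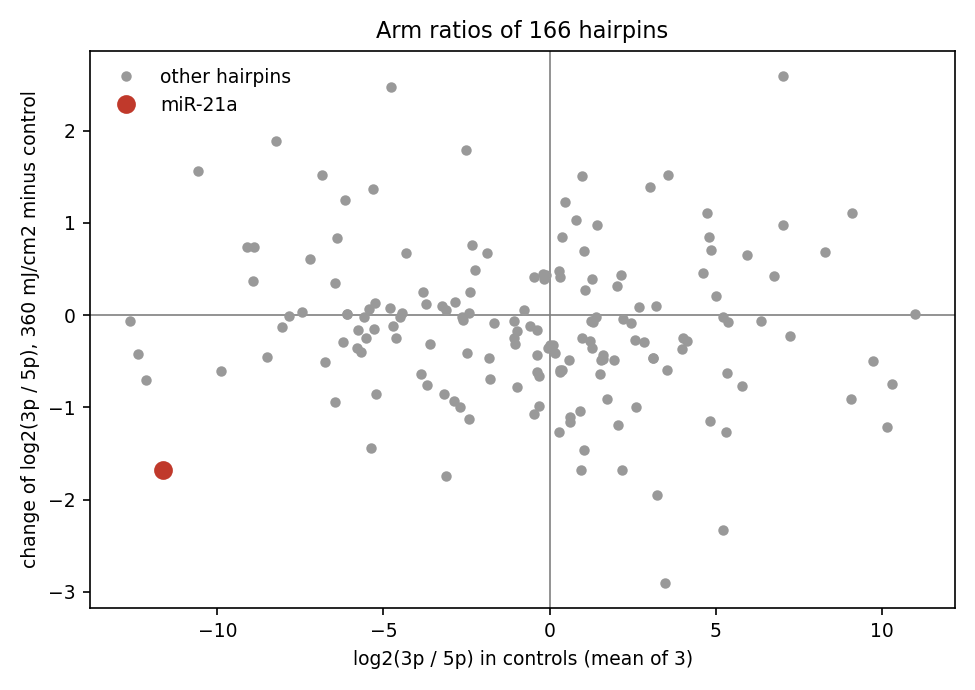
Change of the log2 ratio of 3p to 5p arm from control to 360 mJ/cm2 against the control ratio, for 166 hairpins with both arms tested (1 point each, both axes in log2 units). miR-21a, in red, lies at -11.62 on the control axis and at -1.67 on the change axis.

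The arms with profiles most like miR-21a-5p were sought among 338 tested arms with a mean of at least 10 CPM, by the root mean square difference, over the 12 libraries, of log2 levels set to a control mean of 0. The nearest were miR-34c-5p (0.33), miR-34b-5p (0.38), miR-34b-3p (0.43), miR-34c-3p (0.47) and miR-129-5p (0.52). The first 4 are arms of the miR-34b/c cluster, whose transcription is known to be raised by p53. miR-34c-5p went from 129 ± 55.0 CPM (SD, n = 3) in controls to 574 ± 69.0, 726 ± 175 and 861 ± 101 CPM in order of dose. The other 3 members were at distances of 1.24 to 1.42 from miR-21a-5p and placed 26 to 39.

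For miR-21a-3p the nearest profiles were those of miR-214-5p (0.32), miR-455-5p (0.35), miR-434-5p (0.38), miR-7a-5p (0.40) and miR-126a-3p (0.43). miR-214-5p, from a hairpin expressed in fibroblasts, averaged 144 ± 51.1 CPM (SD, n = 3) in controls and 386 ± 62.6 CPM at 360 mJ/cm2. miR-21b placed 7 and miR-21c 9 in this order, while miR-21a-5p placed 215. The order describes likeness of profiles in these libraries only.

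**Figure D5:**
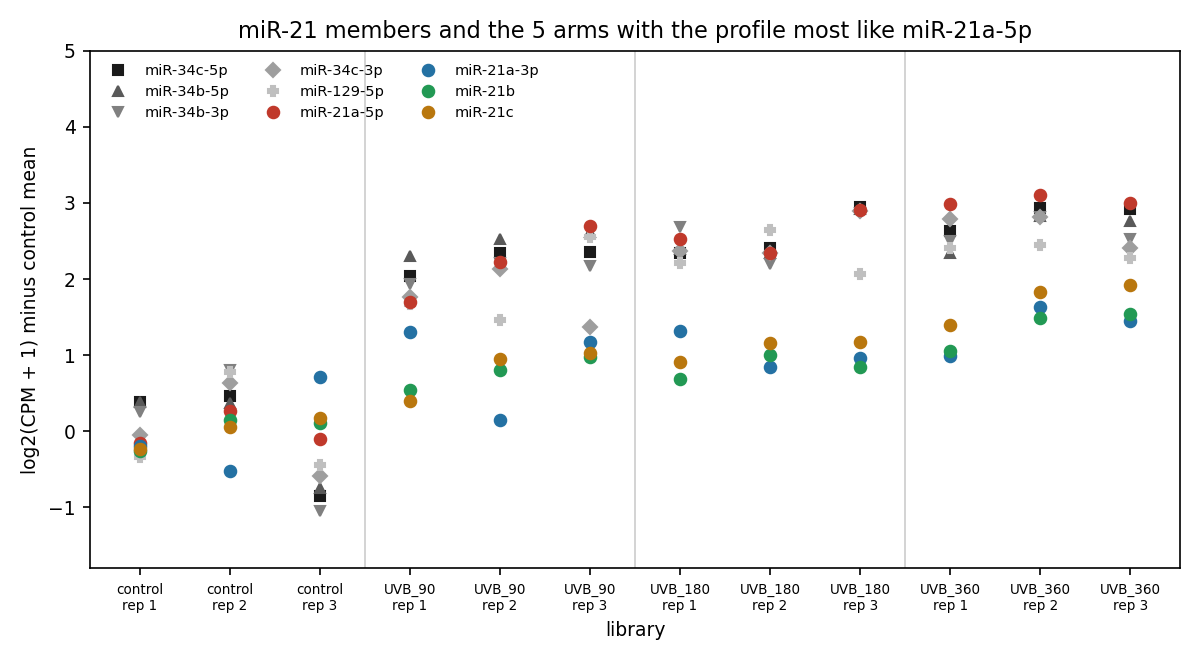
Log2 level of CPM + 1 relative to the control mean in each library, for the 4 miR-21 rows and the 5 arms nearest to miR-21a-5p. At 360 mJ/cm2 miR-34c-5p and miR-21a-5p average 2.83 and 3.03, and the other 3 miR-21 rows lie lower.

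A list of 12 miRNA arms reported to be induced, as miR-21 is, through NF-kB, AP-1 or STAT3 was followed beside the members, and all 12 were tested. At each dose 5 of them rose, 1 fell and 6 did not pass, where 25.6%, 30.7% and 39.8% of all arms were called in either direction, and the median log2 change of the list was 0.76, 0.71 and 0.53 in order of dose, against 0.04, 0.06 and 0.02 over all 590 arms. The list was chosen with earlier results of these data known, so its counts and medians are descriptive only. It did not move as one. At 360 mJ/cm2 the risers were the myeloid miRNAs miR-223-3p (4.16) and miR-147-3p (4.66), miR-212-3p (1.32) and miR-132-3p (1.75), which come from 1 cluster raised by CREB, and miR-155-5p (1.24) of activated leukocytes. miR-181b-5p fell, with -1.88. At 90 mJ/cm2 the risers were miR-155-5p, miR-31-5p, miR-146b-5p, miR-212-3p and miR-132-3p, and at 180 mJ/cm2 miR-147-3p stood in place of miR-155-5p. The count of 5 fell to 2 at 90 mJ/cm2 without control replicate 1, and to 3 without the replicates 2 of 90 or 180 mJ/cm2 or replicate 3 of 360 mJ/cm2. At 180 mJ/cm2 it fell to 2 without control replicate 1 or the 180 mJ/cm2 replicate 3, and to 3 without the 180 mJ/cm2 replicate 1. The count of 1 that fell became 2 at 360 mJ/cm2 with TMM, edgeR or DESeq2 or without control replicate 1. The call of miR-155-5p at 90 mJ/cm2 was lost with TMM (0.66), with the replicate block (0.71) and with no filter (0.71). It was also lost without control replicate 1 or 3, replicate 2 or 3 at 90 or 180 mJ/cm2, or any 360 mJ/cm2 library (limma adjusted p up to 0.223). That of miR-147-3p at 180 mJ/cm2 was lost with TMM (1.58), edgeR (2.08), DESeq2 (1.93) and a pseudocount of 5 (0.81). It was also lost without control replicate 1 or 2 or the 180 mJ/cm2 replicate 1 or 3 (limma adjusted p up to 0.149). At 90 mJ/cm2 the call of miR-31-5p was lost with no filter and without control replicate 1 or 2. It was also lost without replicate 1 or 2 at 90, 2 at 180 or 3 at 360 mJ/cm2. miR-212-3p was lost at 90 and 180 mJ/cm2 without control replicate 1, and at 180 mJ/cm2 without its replicate 3. miR-146b-5p at 180 mJ/cm2 was lost without control replicate 1 or the 180 mJ/cm2 replicate 1 or 3. miR-132-3p at 90 mJ/cm2 was lost without its replicate 3 and the 180 mJ/cm2 replicate 1 together.

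Marker miRNAs of some other cell types moved with dose beside the miR-21 rows, and those of others did not. The lists were read against 13.2%, 16.6% and 20.2% of all arms called higher and 12.4%, 14.1% and 19.7% called lower in order of dose. The summed level of 7 leukocyte and myeloid arms was 580 to 757 CPM in controls, 926 to 2364 at 90 mJ/cm2, 873 to 1681 at 180 mJ/cm2 and 3475 to 4741 at 360 mJ/cm2, and 3, 5 and 5 of the 7 rose in order of dose. miR-223-3p and miR-147-3p are also in the list with shared activators, so the 2 lists are not separate observations. At 360 mJ/cm2 1 of the 7 leukocyte and myeloid arms, the lymphocyte miRNA miR-150-5p, fell by limma (-0.82, adjusted p = 0.044), a call lost without any 1 of 9 libraries, all but control replicate 3, the 90 mJ/cm2 replicate 3 and the 360 mJ/cm2 replicate 2 (-0.82 to -0.60). The summed level of 7 keratinocyte and epithelial arms was 81219 to 94933 CPM in controls, 28121 to 88669 at 90 mJ/cm2, 41085 to 95200 at 180 mJ/cm2 and 11646 to 36482 at 360 mJ/cm2, and 3, 3 and 7 of the 7 fell. Most of this sum was miR-203-3p, at a mean of 67050 CPM in controls and 15276 at 360 mJ/cm2. Of the 2 endothelial arms, miR-126a-3p averaged 8233 ± 147 CPM (SD, n = 3) in controls and 22824 ± 1854 at 360 mJ/cm2 and rose at every dose, at 90 mJ/cm2 not without control replicate 1 or 2 or the 90 mJ/cm2 replicate 3 (0.52 to 0.68). miR-126a-5p, at 319 ± 91.3 and 404 ± 80.7 CPM, did not pass at any dose. The 4 red blood cell arms summed to 789 to 2324 CPM in controls and 1185 to 1752 at 360 mJ/cm2, which overlap. Of 4 skeletal muscle arms 2, 2 and 1 fell in order of dose. Of 5 fibroblast and smooth muscle arms 1 rose at 90 mJ/cm2, and 3 rose and 2 fell at both higher doses. The 2 pigment cell arms summed to 97.1 to 156 CPM in controls and 9.80 to 12.6 at 360 mJ/cm2, and 1, 2 and 2 fell. No marker arm was at 0 in all libraries of a group. The part of these cell types in the miR-21 values was not tested.

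The lowest keratinocyte sums below 360 mJ/cm2 were those of the 90 mJ/cm2 replicate 3 and the 180 mJ/cm2 replicate 1. Without both libraries, miR-21a-5p was still called at every dose. miR-21b (0.68, limma adjusted p = 0.13) and miR-21c (0.67, adjusted p = 0.14) were no longer called at 90 mJ/cm2, nor miR-21a-3p at 180 mJ/cm2 (0.90, adjusted p = 0.12). Both paralog calls were also lost without the 90 mJ/cm2 replicate 3 alone. They were lost as well without the 90 mJ/cm2 replicate 2 (miR-21b 0.76, miR-21c 0.71), whose keratinocyte sum was 88669 CPM. All 360 mJ/cm2 libraries, at 11646 to 36482 CPM, were kept. The part of keratinocytes in the calls was therefore not tested.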

How the data were processed

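The 12 small RNA libraries were prepared with a NEBNext small RNA kit for NextSeq sequencing, per the labels' protocols. The genome build was mm9, per the submitters' processing notes; the sources used here do not give aligner or counter. The deposited table gives CPM per mature miRNA arm, made by the authors. Each library's smallest step gave whole reads for 100% of values (tolerance 0.01), so depth was known: 3164422 to 8063815 reads, with a floor of 3 reads at 0.372 to 0.948 CPM.

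From the deposited CPM, arms reaching 1 CPM in 3 or more libraries were tested on log2(CPM + 1) with limma 3.58.1 (trend, R 4.3.3) in one fit over 4 groups, two-sided, with Benjamini-Hochberg adjustment over all arms at 0.05; a fold change on this scale understates the change of low arms. Ratios among members were tested by exact permutation. Dispersion within groups was compared with Poisson counting. As alternatives, recovered reads were tested with edgeR 4.0.16 and DESeq2 1.42.0, and scaling, filter, pseudocount, replicate block and left-out libraries were varied. In the order 90, 180 and 360 mJ/cm2, the limma fit called 151, 181 and 235 arms, edgeR 172, 199 and 254 and DESeq2 177, 198 and 250. Scripts were tested on simulated data.

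Names of 1282 of 1519 arms matched RefSeq; sequences and coordinates are RefSeq's (GRCm38.p6), gene overlaps GENCODE's on the same assembly, and none come from mm9. Named arms were the members, arms with their seeds, the 5 nearest profiles, a list of 12 arms with shared activators, miR-1a-3p and arms above miR-21a-5p in controls. Members and lists were chosen with earlier results of these data known.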

Additional observations from a re-analysis of the deposited data

How the results depend on the processing

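The calls of miR-21a-5p against control at all 3 doses held in all 22 alternatives (log2 changes 1.96 to 2.46, 2.44 to 2.72 and 2.95 to 3.29). Other calls were lost; beyond the smaller number of samples or larger number of arms in some settings, the cause was not tested. With no filter on low arms, the calls of miR-21a-5p (0.82) and miR-21c (0.93) at 360 against 90 mJ/cm2, miR-21a-3p at 180 mJ/cm2 (1.04), and miR-21b (0.78) and miR-21c (0.79) at 90 mJ/cm2 were lost. miR-21a-3p at 180 mJ/cm2 was also lost with TMM scaling (0.97), edgeR (1.001) and DESeq2 (0.995), and its difference over the 4 groups with edgeR (adjusted p = 0.064). Without the 90 mJ/cm2 replicate 3 and the 180 mJ/cm2 replicate 1 together, miR-21a-3p at 180 mJ/cm2 (0.90) and over the 4 groups (adjusted p = 0.0503), miR-21b (0.68), miR-21c (0.67) and the arm ratio (-1.23) at 90 mJ/cm2 were lost, and 71 arms were called at 90 mJ/cm2. A pseudocount of 0.1 ended the arm ratio calls at 90 (-1.23), 180 (-1.43) and 360 mJ/cm2 (-1.54) and over the 4 groups (adjusted p = 0.106), and no pseudocount that of the permuted ratio of miR-21a-3p to miR-21a-5p (-1.52).

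Leaving out each library in turn changed a call or a count for these results, given as lowest and highest value with the joint removal above included. For miR-21a-5p, 360 against 90 mJ/cm2 gave 0.57 to 1.07. For miR-21a-3p, 90 mJ/cm2 gave 0.62 to 1.24, 180 mJ/cm2 0.78 to 1.40, 180 against 90 mJ/cm2 -0.20 to 0.38 (reversed without the 90 mJ/cm2 replicate 2), the test over 4 groups an adjusted p of 0.00719 to 0.155, and the slope 0.24 to 0.36. For miR-21b, 90 mJ/cm2 gave 0.65 to 0.89, 180 mJ/cm2 0.72 to 0.93 and 180 against 90 mJ/cm2 -0.045 to 0.25. For miR-21c, 90 mJ/cm2 gave 0.67 to 0.98 and 360 against 90 mJ/cm2 0.73 to 1.08. The arms called numbered 50 to 175 at 90 mJ/cm2 and 90 to 196 at 180 mJ/cm2. The arm ratio gave -1.797 to -0.93 at 90 mJ/cm2, -1.94 to -1.14 at 180 mJ/cm2 and an adjusted p of 0.00915 to 0.1002 over the 4 groups, and the permuted ratio -2.06 to -1.27.

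Of values for named arms that are not members, 4 changed sign. They were miR-126a-5p at 90 (-0.054, up to 0.37 over left-out libraries) and 180 mJ/cm2 (-0.039, up to 0.39) without control replicate 3, and miR-31-5p at 360 mJ/cm2: 0.12 with the most abundant arms (miR-1a-3p, miR-21a-5p) kept out of library sizes and 0.01 without the 360 mJ/cm2 replicate 1, in a range of -0.39 to 0.01 over left-out libraries. Keeping those arms out moved the median log2 change of all arms at 360 mJ/cm2 from 0.02 to 0.22. A fit with the replicate number as a block ended the call of miR-155-5p and added that of miR-147-3p (1.47) at 90 mJ/cm2, changed no call of a member (miR-21a-5p at 360 mJ/cm2 3.03) and called 155, 171 and 229 arms. No pairing of the libraries by replicate number was seen, though with 3 libraries per group this check cannot exclude one. Of 18 same-numbered pairs, 6 had a correlation of deviations over 0.1. The mean correlation was 0.008 over same-numbered pairs against -0.004 for other pairs, and 3 of 12 libraries were most like one of their own number. The 3 low members rest on 24 to 98 reads per library; the variance of miR-21a-3p between libraries was up to 9.31 times that of counting alone, so its spread is not set by depth alone.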

Other observations

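The paralogs were also compared with each other, after their values were seen. The log2 ratio of miR-21b to miR-21c, computed on CPM + 1, was 0.02 ± 0.08 (SD, n = 3) in controls and 0.01 ± 0.14 at 90 mJ/cm2. It was -0.21 ± 0.09 at 180 mJ/cm2 and -0.33 ± 0.02 at 360 mJ/cm2. The 2 arms were thus at about the same level in untreated skin, and miR-21c was the more abundant in every library at 180 and 360 mJ/cm2. Each value rests on under 100 reads per arm, and the difference between groups was not tested.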
